A study of Mus musculus with 24 samples.

Results

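Lentiviral barcodes that were found in macrophages of both the heart and the kidney, but not at the level taken as presence in blood, numbered 132 in mouse 1, 86 in mouse 2 and 117 in mouse 3. These 335 members, 333 distinct sequences, were selected on their measured shares of reads within each mouse, out of 327974 sequences in all samples. A member had at least 0.1% of the reads in at least 1 of the 4 macrophage subsets, at least 0.01% in cardiac Ccr2hi or Ccr2lo macrophages, at least 0.01% in renal M2 macrophages, and less than 0.01% in each of monocytes, neutrophils, B cells and T cells of the same mouse. The rule fixed which samples were high and which were low, so these contrasts are described without a test.

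The series holds 24 samples of genomic DNA, from 8 sorted populations of each of 3 mice, all labelled C57BL/6J. Haematopoietic stem cells (HSCs) from C57BL/6 bone marrow were cultured, received the barcoding lentivirus pBC008 on day 5 after plating and were sorted as GFP+LinSca1+cKit+ cells 4 days later. The recipients, CD45.2 males aged 5 weeks, were given 9 Gy of whole-body irradiation and then the barcoded cells together with CD45.2+ LincKit+Sca1- rescue cells, for which no infection is described. Tissues were taken 2 months after transplantation. All 3 mice had this treatment, and the series compares populations within mice rather than treated with untreated animals. Macrophages of the host that survived irradiation, and progeny of the rescue cells, give no reads, so only the transplanted, barcoded part of each population is seen. The surface markers behind the names M1 and M2 and the numbers of sorted cells are not given in the sources used here, and the sorted identities cannot be checked against marker genes in barcode counts.

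A barcode integrated into the genome is copied at each division, so cells in different organs that carry the same barcode are taken to descend from the same transduced cell, unless the sequence entered more than 1 cell. Tissue macrophages arise from embryonic precursors and from blood monocytes, and Ccr2, the receptor for the chemokine Ccl2, guides monocytes out of the bone marrow and into tissues. Monocytes and neutrophils are short-lived and renewed continuously, whereas macrophages and lymphocytes can live on long after the cells that made them are gone.

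The largest members of each mouse, by their mean share over Ccr2hi, Ccr2lo and M2 macrophages, are shown first because they give the upper end of the sizes reached without presence in blood. Capital letters mark bases that depart from the design of these barcodes, in which G or C alternates with A or T.
barcode 1a: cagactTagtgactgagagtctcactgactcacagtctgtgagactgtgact
barcode 1b: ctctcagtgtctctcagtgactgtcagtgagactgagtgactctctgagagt
barcode 1c: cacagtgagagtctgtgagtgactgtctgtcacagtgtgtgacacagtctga
barcode 2a: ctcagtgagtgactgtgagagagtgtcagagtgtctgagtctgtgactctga
barcode 2b: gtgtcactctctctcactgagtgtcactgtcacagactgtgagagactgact
barcode 2c: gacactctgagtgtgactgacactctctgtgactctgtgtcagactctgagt
barcode 3a: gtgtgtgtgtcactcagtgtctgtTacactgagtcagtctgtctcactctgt
barcode 3b: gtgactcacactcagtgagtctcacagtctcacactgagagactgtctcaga
barcode 3c: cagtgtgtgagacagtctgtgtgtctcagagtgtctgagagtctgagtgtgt
The members with the most unequal levels in the 2 organs follow, first the one tilted most to the heart and then the one tilted most to the kidney in each mouse.
barcode 1d: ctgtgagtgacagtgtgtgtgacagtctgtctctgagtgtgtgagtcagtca
barcode 1e: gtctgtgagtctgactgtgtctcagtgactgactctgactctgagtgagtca
barcode 2d: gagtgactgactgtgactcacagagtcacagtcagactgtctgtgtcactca
barcode 2e: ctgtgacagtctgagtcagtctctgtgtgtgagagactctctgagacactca
barcode 3d: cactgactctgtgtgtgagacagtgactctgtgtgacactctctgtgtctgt
barcode 3e: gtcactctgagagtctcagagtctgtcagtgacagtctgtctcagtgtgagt
The last set holds the members with the highest share in renal M1 macrophages (barcodes 1f, 2f and 3f) and with the highest mean share over blood (barcodes 1g and 2g). In mouse 3 the highest mean share over blood belonged to barcode 3a.
barcode 1f: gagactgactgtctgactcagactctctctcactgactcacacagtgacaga
barcode 2f: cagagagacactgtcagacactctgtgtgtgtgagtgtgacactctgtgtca
barcode 3f: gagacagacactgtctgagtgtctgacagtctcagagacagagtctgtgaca
barcode 1g: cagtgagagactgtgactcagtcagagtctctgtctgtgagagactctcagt
barcode 2g: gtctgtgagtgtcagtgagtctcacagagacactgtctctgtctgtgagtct

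All members were 52 bases long. Of the 335, 38 (11.3%) broke the alternating pattern, 36 of them at 1 position and 2 at 2 positions, against 85 of all 885 barcodes (9.60%) that reached 0.1% in a macrophage subset. The alternation fixes the content of G and C at 50%, and the lowest value among members was 46.2%. The members were far apart in sequence. Measured against each mouse's 1293 to 1848 barcodes with 0.01% or more in any population, the nearest neighbour of a member differed at 10 or more positions, with a median of 14 in each mouse. None of them was therefore a near copy, within a few bases, of a more abundant barcode.

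Samples held between 6808221 and 15745444 reads, so that 0.01% stood for 681 to 1575 reads. In the sample with the fewest reads, a barcode with no read could still have a share of 4.41e-05%. Reads came from PCR without molecular identifiers, and limits and intervals here cover counting error only. Each barcode had 1 sample per population and mouse, so no single barcode could be tested, and the 3 mice give the spread of the summaries. Populations that share a number in their titles were taken as those of 1 animal.

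Members made up a minor part of the barcoded Ccr2hi, Ccr2lo and M2 macrophages, the subsets in which the rule asked for presence, and at most 0.702% of M1 reads. In mouse 1 they summed to 14.8% of Ccr2hi, 15.7% of Ccr2lo and 16.1% of M2 reads. In mouse 2 the sums were 9.32%, 11.6% and 11.5%, and in mouse 3 they were 11.5%, 14.1% and 15.4%, in the same order. Over the mice this gave 11.9% ± 2.77 of Ccr2hi, 13.8% ± 2.05 of Ccr2lo and 14.3% ± 2.48 of M2 reads (SD, n = 3). The 3 subsets overlapped in their range over mice, and the Ccr2lo sum exceeded the Ccr2hi sum in each mouse. The remaining reads of these subsets came largely from 527 barcodes that met the same tissue limits but reached 0.01% in blood, which summed to 59.3% ± 8.84 of Ccr2hi, 54.5% ± 7.78 of Ccr2lo and 53.9% ± 8.43 of M2 reads (SD, n = 3).

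Among barcodes below the blood limit, presence in only 1 organ was rare. Barcodes in the heart but under 0.01% in M2 macrophages numbered 6, 4 and 2 in the 3 mice, and barcodes in M2 macrophages but in neither heart subset numbered 1, 1 and 0. Members thus accounted for 94.96%, 94.5% and 98.3% of the barcodes that were below 0.01% in blood, reached 0.1% in a macrophage subset and were present in heart or M2. Over all barcodes at 0.1% in a macrophage subset, in blood or not, 862 of 885 met both tissue limits. Presence in both organs was therefore not particular to barcodes below the blood limit. The limit for presence lies 10 times below the limit for size, so a barcode at 0.1% in the heart had to be over 10-fold lower in M2 macrophages to count as restricted to it.

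Single members were small. Their highest share in any macrophage subset had a median of 0.140%, 0.150% and 0.145% in mice 1, 2 and 3, and 85 of the 335 reached 0.2%. The largest value was 0.487% in mouse 1, 0.589% in mouse 2 and 0.583% in mouse 3. The highest-ranked member stood at place 19, 25 and 26 among all barcodes of the M2 samples of mice 1, 2 and 3. In Ccr2hi macrophages it stood at place 23, 38 and 32, and in Ccr2lo macrophages at place 27, 34 and 24. In 154 members the highest subset was M2, in 119 Ccr2lo, in 62 Ccr2hi and in 0 M1.

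The median member had shares of a similar size in Ccr2hi, Ccr2lo and M2 macrophages, with the widest gap in mouse 3. The rule used these shares. In mouse 1 the median member had 0.0992% of Ccr2hi, 0.110% of Ccr2lo and 0.106% of M2 reads. In mouse 2 the medians were 0.102%, 0.116% and 0.122%, and in mouse 3 they were 0.0785%, 0.107% and 0.117%. All 335 members had M2 reads at 0.01% or more by the rule, and 330 did so in Ccr2hi and 330 in Ccr2lo, where the rule asked for only 1 of the 2. Only 10 members (1, 2 and 7 in the 3 mice) therefore fell below 0.01% in a heart subset, and the 2 heart subsets shared nearly the whole set.

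The largest barcodes show how level could differ between organs. In mouse 1, barcode 1a held 0.202% of Ccr2hi, 0.385% of Ccr2lo and 0.415% of M2 reads, and barcode 1b held 0.336%, 0.362% and 0.196%. Barcode 1c had 0.197% and 0.178% in the heart subsets and 0.420% in M2 macrophages (95% Wilson interval 0.417% to 0.423%). The 3 largest of this mouse were thus highest in different places, 2 of them in the kidney and barcode 1b in the heart.

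In mouse 2, barcode 2a was level in all 3 subsets, with 0.430% of Ccr2hi, 0.534% of Ccr2lo and 0.521% of M2 reads. Barcode 2b leaned to the heart, with 0.308% and 0.523% against 0.218% in M2 macrophages. Barcode 2c leaned to the kidney, with 0.186% and 0.211% in the heart subsets against 0.589% in M2 macrophages (95% Wilson interval 0.585% to 0.593%), and was the largest value of any member. In mouse 3 the 3 largest members all leaned to the heart. Barcode 3a held 0.490% of Ccr2hi and 0.583% of Ccr2lo reads against 0.296% of M2 reads. Barcode 3b held 0.418% and 0.300% against 0.222%, and barcode 3c held 0.275% and 0.502% against 0.115%. The order of Ccr2hi and Ccr2lo was not the same in these barcodes: barcodes 3a and 3c were higher in Ccr2lo and barcode 3b in Ccr2hi macrophages.

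Agreement between the organs was measured for each member as the ratio of its mean share in Ccr2hi and Ccr2lo to its share in M2 macrophages. The typical member differed 1.96-fold, 1.60-fold and 2.04-fold between heart and kidney in mice 1, 2 and 3 (median of the ratio, taken in whichever direction it ran). Within 2-fold lay 52.3%, 61.6% and 49.6% of members, and within 4-fold 83.3%, 88.4% and 82.9%. The median log2 ratio of heart to kidney was 0.26 in mouse 1, -0.11 in mouse 2 and -0.38 in mouse 3, so the members as a group had no shared tilt to either organ, with a mean of -0.08 ± 0.32 (SD, n = 3). The heart value was the higher in 71 of 132, 37 of 86 and 51 of 117 members.

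Over the 3 mice, 68 members (20.3%) were more than 2-fold higher in the heart and 87 (26.0%) more than 2-fold higher in M2 macrophages. Among all 862 barcodes that met the tissue limits, in blood or not, 22.6% were more than 2-fold higher in the heart and 15.7% more than 2-fold higher in M2 macrophages. The rule itself used heart and M2 levels, and nothing is read from these counts beyond their size. The barcodes that were also in blood, 527 of the 862, came to 67.3% ± 9.84 within 2-fold, against 54.5% ± 6.33 of the members (SD, n = 3). The blood-positive share was the higher one in each mouse. The blood-positive barcodes also had higher median shares in each mouse and subset. On average these were 0.168% against 0.0934% of Ccr2hi, 0.181% against 0.111% of Ccr2lo and 0.144% against 0.115% of M2 reads. The difference in agreement between the 2 sets was not tested.

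The most tilted members show the range. Barcode 1d had 0.399% of Ccr2hi and 0.265% of Ccr2lo reads but 0.0338% of M2 reads, a heart level 9.80 times the kidney level. Barcode 1e had the reverse, with 0.131% of M2 reads against 0.0146% and 0.00446% in the heart subsets, a kidney level 13.7 times the heart level. Both lie in the same mouse, so the same pair of organs held barcodes displaced in opposite directions.

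In mouse 2, barcode 2d was 7.72 times higher in the heart, at 0.0460% of Ccr2hi, 0.118% of Ccr2lo and 0.0106% of M2 reads. Barcode 2e was 8.55 times higher in the kidney, at 0.0162%, 0.00796% and 0.104% of reads in the same order. In mouse 3, barcode 3d was 5.33 times higher in the heart, with 0.0495%, 0.120% and 0.0159%. These values are near the 0.01% limit on their low side, where the rule ends the range. Barcode 3e, 13.2 times higher in the kidney with 0.127% of M2 reads, was counted in the heart through Ccr2hi macrophages (0.0193%) alone, since it had 4 reads (3.15e-05%) in Ccr2lo macrophages.

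The typical difference between the 2 macrophage subsets of the heart was smaller, in each mouse, than that between heart and kidney. The typical member differed 1.47-fold, 1.49-fold and 1.57-fold between Ccr2hi and Ccr2lo, after 0.001% was added to both shares, and 81.8%, 74.4% and 67.5% of members lay within 2-fold. This order turned when the size limit was dropped, a setting added with the values in view: on average over mice 58.5% of barcodes then lay within 2-fold between the heart subsets and 63.2% between heart and kidney. Counting error was small beside either spread. The 95% Wilson intervals of Ccr2hi and Ccr2lo were apart in 321 of 335 members, and those of Ccr2lo and M2 in 328. The intervals of other barcodes were not counted, so these numbers describe counting error at this depth and not a trait of members. The error that PCR and the sampling of cells add could not be measured, because no population of a mouse was sequenced in replicate.

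The heart subsets were not wholly alike. Members more than 2-fold higher in Ccr2lo than in Ccr2hi macrophages numbered 13, 18 and 27 in the 3 mice, 58 in all (17.3%, against 10.4% of the 862 barcodes). Members more than 2-fold higher in Ccr2hi numbered 11, 4 and 11, 26 in all (7.76%, against 6.26%). The median log2 ratio of Ccr2lo to Ccr2hi was 0.10, 0.19 and 0.39 in mice 1, 2 and 3, above 0 in each, and 73 of 132, 53 of 86 and 82 of 117 members were the higher in Ccr2lo. In the blood-positive barcodes the same medians were -0.07, 0.10 and 0.06, below those of the members in each mouse. The difference was not tested.

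The order of members by size was more alike between the heart subsets than between the organs. Across members, the Spearman correlation of Ccr2hi with Ccr2lo shares was 0.50 in mouse 1 (132 barcodes), 0.57 in mouse 2 (86) and 0.68 in mouse 3 (117). Between the mean heart share and the M2 share it was 0.04, 0.20 and 0.02. In blood-positive barcodes the Spearman correlation of heart with M2 was 0.59, 0.80 and 0.67 (197, 159 and 171 barcodes). No member exceeded 0.589% in any subset, and the 2 sets were not matched in the range of their shares, so these values are not directly comparable.

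The value depended on the size limit of the rule, which keeps a barcode if it is large in either organ. Without that limit, 750, 507 and 663 barcodes met the other limits, and the Spearman correlation of heart with M2 was 0.53, 0.54 and 0.52. Within the heart, between Ccr2hi and Ccr2lo, it was then 0.69, 0.65 and 0.52, so that in mouse 3 both values were alike. In blood-positive barcodes without the limit (394, 268 and 314) the correlation of heart with M2 was 0.78, 0.87 and 0.78, above that of the blood-low barcodes in each mouse. The difference was not tested. With the limit raised to 0.2% the mean Spearman correlation between organs over mice turned negative, -0.32, from 0.09. All these correlations are across barcodes of the same libraries and are descriptions only.

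Renal M1 macrophages, from the same kidneys as the M2 macrophages, held few of the members. The summed share of members in M1 reads was 0.702% in mouse 1, 0.109% in mouse 2 and 0.288% in mouse 3, against 11.5% or more in M2. The median member had 8.59e-05%, 9.70e-05% and 1.18e-04% of M1 reads, or 10, 12.5 and 15 reads. M2 exceeded M1 by more than 10-fold in 113 of 132, 85 of 86 and 110 of 117 members, after 0.001% was added to both, which is 91.9% in all against 73.5% of the 862 barcodes. M1 reads came mainly from the blood-positive barcodes, which summed to 95.3%, 97.9% and 96.0% of them.

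The M1 level was not uniform. It reached 0.01% in 32, 2 and 9 members and 0.001% in 47, 11 and 31, while the rest stayed near the medians given above. The part at 0.01% or more was 11.4% ± 11.4 of members (SD, n = 3) and rested on mouse 1, without which it was 5.01%. Among the blood-positive barcodes this part was larger in each mouse, at 50.8%, 45.9% and 36.8%. In the M1 samples of the other mice, 4 of 670 member values (0.597%) reached 0.001%, against 89 of 335 (26.6%) in the own mouse. Barcode 1f was the highest, with 0.0549% of M1 reads (6385 reads) against 0.326% of M2 reads. Barcode 2f had 0.0356% of M1 and 0.0983% of M2 reads, and barcode 3f had 0.0277% and 0.240%. In the members with 0.001% or more, the M1 share was a median of 7.31%, 4.60% and 4.87% of the M2 share.

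Members seen in M1 macrophages were larger in M2 macrophages. Their median M2 share was 0.162%, 0.136% and 0.154% in mice 1, 2 and 3, against 0.0742%, 0.115% and 0.113% in the members under 0.001% of M1 reads. Their mean heart share differed less, with medians of 0.103%, 0.126% and 0.103% against 0.0982%, 0.102% and 0.0921%. Both medians were the higher in each mouse. M1 and M2 cells were sorted from the same organ, and the part of cells sorted into the wrong gate was not tested.

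In blood, members left traces in almost every sample. Of the 335, only 1 had no read in monocytes, 4 in neutrophils, 1 in B cells and 0 in T cells of its own mouse. The traces were mostly a few reads. The median member had 8, 8 and 6 reads in monocytes, 4, 10 and 7 in neutrophils, 17.5, 17 and 13 in B cells and 11, 16 and 13 in T cells of mice 1, 2 and 3. This corresponds to shares between 5.85e-05% and 1.61e-04%, about the level of a member in the blood of mice other than its own.

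Blood of the other mice was not used by the rule, whereas the own blood was capped by it at 0.01%. The mean blood share of the median member was 1.18e-04%, 1.65e-04% and 9.79e-05% in its own mouse, and 1.19e-04%, 1.21e-04% and 7.27e-05% in the other mice. The own value was the higher in 44.7%, 53.5% and 71.8% of members, a mean of 56.7% ± 13.8 (SD, n = 3). In mice 1 and 2 members were thus about as often lower as higher in their own blood, and in mouse 3 they were more often higher. The mean followed the cap, at 41.2% with a limit of 0.001% in blood and 62.7% with 0.02%. Whether such reads came from blood cells or from transfer between samples was not tested.

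A minority of members stood above that background, mainly in B cells. At 0.001% or more there were 84 members in B cells (34, 20 and 30 in mice 1, 2 and 3), 15 in T cells, 10 in monocytes and 6 in neutrophils. In samples of the other mice, 14 of 670 values reached 0.001% in B cells (2.09%), 7 in T cells (1.04%), 4 in monocytes (0.597%) and 2 in neutrophils (0.299%). The excess was thus largest in B cells, at 25.1% of members. The same part was not counted over other large macrophage barcodes of the same mouse, so the excess is not read as a trait of members. B cell samples also held more barcodes of this size in total, 574 to 808 in the 3 mice against 382 to 461 in the other blood populations. The blood-positive barcodes, too, had their highest median share in B cells, 0.107% on average over mice. It was 0.0202% in monocytes, 0.0107% in neutrophils and 0.00686% in T cells. Their summed share was not highest there, at 81.0% of B cell against 96.1% of monocyte and 96.9% of neutrophil reads. A higher median in B cells was thus seen in both sets. Both sets were chosen by their blood shares, so these medians cannot show whether it is particular to members.

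In 65 members B cells were the only blood population at 0.001% or more. B cells were the highest of the 4 blood populations in 88 of 132, 38 of 86 and 64 of 117 members. The summed share of members in B cells was 0.165%, 0.106% and 0.143% in the 3 mice, against 0.0182%, 0.0351% and 0.0437% in monocytes. In neutrophils it was 0.0205%, 0.0168% and 0.0214%, and in T cells 0.0239%, 0.0308% and 0.0227%. The B cell sum was the highest in each mouse. The rule capped every blood population at the same 0.01%, so these sums have an upper bound set by the choice of members.

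The members with B cell reads and those with M1 reads were in part the same. Of the 89 members at 0.001% or more in M1 macrophages and the 84 in B cells, 30 were in both. In mouse 1 this was 31.9% of the M1 and 44.1% of the B cell members, in mouse 2 it was 27.3% and 15%, and in mouse 3 it was 38.7% and 40%. Among all members, the M1 members included, the part with B cell reads was 25.8%, 23.3% and 25.6%. The part among M1 members lay above it in each mouse, but in mouse 2 this was only 3 of 11 members against 20 of 86. The difference between these parts was not tested, and it was not counted over other barcodes. Neither M1 nor any blood population reached 0.001% in 185 members. The rule asked for presence in the heart and in M2 macrophages and capped every blood population, but it set no upper limit for M1. This number is therefore in large part set by the choice of members. It was not counted over other barcodes and is not read as a trait of members.

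The members with the highest blood levels differed in the cells that carried them. Barcode 1g had 0.00995% of B cell (1080 reads) and 0.00327% of T cell reads but 8 reads in monocytes and 4 in neutrophils. Barcode 2g was the reverse in order, with 0.00677% of T cell (751 reads) and 0.00517% of B cell reads. In both, lymphoid traces stood alone and the myeloid samples were at the background level.

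Barcode 3a, the largest member of mouse 3, had 0.00965% of monocyte (990 reads) and 0.00817% of B cell reads with 28 reads in neutrophils. Barcodes 2c and 2f had 0.00835% and 0.00828% of monocyte reads, with 33 and 11 reads in neutrophils. These monocyte traces had no counterpart in neutrophils, the other myeloid population of the same blood. By contrast, barcode 2a, level at about the same share in all 3 macrophage subsets, had 37 reads in monocytes, 38 in neutrophils, 55 in B cells and 76 in T cells.

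The limits cut through a continuous range. The members nearest to the blood limit had 0.00998% and 0.00995% in their highest blood population in mouse 1, 0.00977% and 0.00973% in mouse 2 and 0.00995% and 0.00965% in mouse 3. Barcodes just outside had 0.0101% and 0.0109%, 0.0101% and 0.0103%, and 0.0108% and 0.0111%. At the size limit, the smallest members had 0.1002% in mouse 1, 0.1025% in mouse 2 and 0.1004% in mouse 3, and the largest barcodes left out had 0.0989%, 0.0996% and 0.0980%.

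Most members belonged to 1 mouse. The highest share of the median member in any sample of the other mice was 2.26e-04%, 2.32e-04% and 2.11e-04%. However, 32 of the 335 members (7, 8 and 17) reached 0.01% in a sample of another mouse, and 5 were at least as high there as in their own. Recurrence was not counted over the other large macrophage barcodes, so these numbers are not read as a trait of members. The 5 are shown, chosen after their values were seen, because their reads were as frequent in another recipient. Whether both mice carried them or reads passed between samples was not tested.
recurring barcode a: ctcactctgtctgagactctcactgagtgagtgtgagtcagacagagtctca
recurring barcode b: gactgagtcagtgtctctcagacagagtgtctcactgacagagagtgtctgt
recurring barcode c: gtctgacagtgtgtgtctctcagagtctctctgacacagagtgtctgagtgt
recurring barcode d: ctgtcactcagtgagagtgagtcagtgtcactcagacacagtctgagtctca
recurring barcode e: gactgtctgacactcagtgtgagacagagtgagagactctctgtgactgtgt
In mouse 2, recurring barcode a had at most 0.103% (M2) and 0.173% in M2 macrophages of mouse 3. Recurring barcode b had 0.104% (Ccr2hi) in mouse 2 and 0.292% in Ccr2lo macrophages of mouse 3, and recurring barcode c had 0.160% (M2) and 0.172% in Ccr2lo macrophages of mouse 3. Barcodes b and c met the whole rule in mouse 3 as well and are counted as members in both mice, so the 335 members are 333 distinct sequences. Recurring barcodes d and e, members in mouse 3 with at most 0.1004% (Ccr2lo) and 0.138% (M2), had 0.123% in M2 and 0.201% in Ccr2lo macrophages of mouse 1. Each of these highest values lay in a macrophage sample of the other mouse, and all 5 sequences followed the alternating pattern.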

How the data were processed

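The authors deposited 1 file per sample with a raw read count for each distinct barcode sequence of 52 bases, per the file headers. The sources used here do not state how reads were trimmed, filtered and counted. Per the labels' protocols, barcodes were amplified from genomic DNA in 18 PCR cycles and then 9 to 11 indexing cycles. Samples were grouped by the population and mouse number in their titles.

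Shares are percentages of a sample's total count, and a barcode not listed in a file was given a count of 0. The limits of 0.1% and 0.01%, the 0.001% added before log2 ratios with M1 or between the heart subsets, and the 2-fold, 4-fold and 10-fold limits were set as stated in the report. No p-value was computed: each barcode has 1 sample per population and mouse, and the members and lists were chosen with earlier results of these data known. Wilson intervals (95%) used scipy 1.17.1 under Python 3.11.15, with numpy 2.4.6 and pandas 2.3.3. The selection was run on simulated data with known members, whose shares lay away from the limits. This checks the computation only and not barcodes near a limit.

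Barcodes were named by rule: per mouse the 3 members with the highest mean share over Ccr2hi, Ccr2lo and M2, the most heart-tilted and most kidney-tilted, and those with the highest M1 share and the highest mean blood share. Alternatives changed the limits, the heart criterion, the added share and the heart level, merged 1-mismatch barcodes, thinned all samples to 6808221 reads, removed barcodes under 10 reads, spill-over between mice or barcodes off the alternating pattern, and left out each mouse.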

Additional observations from a re-analysis of the deposited data

How the results depend on the processing

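Values are means over mice. The size limit mattered most. With 0.05%, 0.2% or no limit in place of 0.1%, members numbered 300.3, 28.3 and 640 per mouse against 112, and their summed share was 19.8%, 4.80% and 26.0% of Ccr2hi, 22.8%, 5.86% and 29.6% of Ccr2lo, and 23.9%, 6.07% and 31.9% of M2 reads. The Spearman correlation of heart with M2 became 0.25, -0.32 and 0.53 against 0.09, and members within 2-fold between the heart subsets 65.4%, 82.8% and 58.5% against 74.6%. The median blood share was 6.35e-05%, 2.49e-04% and 3.91e-05% against 1.27e-04%. With 0.2%, 23.0% of members reached 0.01% in M1 and 72.7% were higher in their own blood. With no limit, a setting added with the data in view, 63.2% lay within 2-fold between organs, above the 58.5% between the heart subsets, and the median log2 ratio of M1 to M2 was -4.75 against -6.12. That ratio was -8.56 with 0.0001% added and -3.38 with 0.01%, which sets its size. A blood limit of 0.001% gave summed shares of 7.98% (Ccr2hi), 9.37% (Ccr2lo) and 9.98% (M2), with 41.2% of members higher in their own blood, and a limit of 0.02% gave 16.9% of Ccr2lo and 17.2% of M2 reads. Removing spill-over between mice raised the members higher in their own blood to 95.7%, since it deletes their reads in other mice. Members numbered 80.3 per mouse with a blood limit of 0.001%. The remaining values changed by less than their SD over mice (the number of members by less than 1.5 times), and without each mouse in turn members numbered 101.5 to 124.5. This says little for the part of members at 0.01% in M1, whose SD was as large as its mean of 11.4%. That part was 6.90% with a size limit of 0.05%, 4.22% with no limit and 5.01% without mouse 1. No test was run, paired by mouse or not. Depth limits only the blood and M1 traces of a few reads.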
